A study of Homo sapiens with 5 samples.

Results

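The genes examined here encode the subunits of Mediator and of its kinase module, and the question was where the proteins MED17, MED30 and MYC were bound at these genes. The set holds 33 genes among 20037 protein-coding genes of the hg38 assembly: 7 of the kinase module (CDK8, CDK19, CCNC, MED12, MED12L, MED13 and MED13L), 7 of the head, 9 of the middle, 9 of the tail, and MED14, the backbone of the complex. They were chosen by name. A gene was counted as bound when a peak came within 1 kb of either of its ends. The study had used chromatin immunoprecipitation followed by sequencing in Mia PaCa-2 cells, a long-established line from a human pancreatic carcinoma, with 1 library per group and hence no replicate check and no p-value.

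The groups were MED17, MED30 and MYC in parental cells under normal culture, and MYC in Mia PaCa-2 cells labelled teton shMED30, in which doxycycline switches on a short hairpin RNA directed at MED30, with 3 days of doxycycline and without it. The labels give the doxycycline concentration as 0.5 mg/ml, and no label says whether the hairpin line is a clone. Cells for MED17 and MED30 were crosslinked for 20 min in 2 mM disuccinimidyl glutarate before a 10 min step in 1% formaldehyde, and cells for MYC by the formaldehyde step alone, so fixation differs wherever MYC is set beside a Mediator subunit.

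Mediator is a large complex that carries signals from DNA-bound transcription factors to RNA polymerase II at promoters. Its head and middle contact the polymerase, its tail is the main landing site for activators, and the kinase module, built from cyclin C (CCNC), CDK8 or its paralog CDK19, MED12 or MED12L and MED13 or MED13L, attaches reversibly and blocks the polymerase site while attached. MED17 is a central scaffold of the head. MED30 has no counterpart in budding yeast and was placed with the tail here, together with MED27, MED28 and MED29, although earlier schemes put these in the head. MYC is a transcription factor that, paired with MAX, binds the E-box CACGTG.

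In parental cells 13172 MED17 peaks, 12040 MED30 peaks and 14331 MYC peaks had been called, and in the shMED30 line 4621 MYC peaks with doxycycline against 7158 without it. The files hold no read totals, but fold and p together give the fragment pileup. The genome-wide background came to 1.6, 1.65 and 2.56 fragments for MED17, MED30 and MYC in parental cells, and to 0.186 with doxycycline against 0.310 without it. By this measure of depth the libraries with and without doxycycline stood at 0.0725 and 0.121 times the parental MYC library, and the library with doxycycline at 0.599 times the one without. Fold, p and q are the authors' own values and are used only to describe or rank peaks within a list, and ranks in lists of different length show no change. As to the identity of the cells, 4 of 4 mesenchymal marker genes had a MED17 and a MED30 peak (exact interval 39.8 to 100.0%). So did 3 of 6 epithelial ones (11.8 to 88.2%), KRT8, KRT18 and KRT19, but not KRT7, EPCAM or CDH1. Over all protein-coding genes 39.0% had both. The epithelial interval holds that share, so this count does not set the epithelial markers apart from genes at large. Parental MYC had a peak at 1 mesenchymal and 2 epithelial marker genes. The 2 were KRT8 and KRT18, both at a fold of 4.82, and may share 1 peak. None of the marker genes of acinar (4 genes), islet (3), endothelial (3), immune (3) and fibroblast (3) cells had a peak in any of the 5 lists. These are binding data, and no expression was measured.

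The reference promoters below belong to members that differ in MYC peaks and in the motifs searched. Each is the hg38 sequence in RefSeq's annotation (GRCh38.p14) running from 250 bases before to 50 bases after the listed gene start, written 5′ to 3′ on the gene's strand, with capitals marking CACGTG, or CACGCG on either strand. CDK8, at chr13:26253879-26254178 (plus strand), and MED13L, at chr12:116277644-116277943 (minus strand), are shown because they were the only members with CACGTG among the 25 that have a listed start. MED20, at chr6:41920894-41921193 (minus strand), is shown with BYSL, at chr6:41921249-41921548 (plus strand), because the summit of the strongest parental MYC peak of the set lies close to the BYSL start. MED16, at chr19:893138-893437 (minus strand), had MYC close to its start and no such motif, MED25, at chr19:49818039-49818338 (plus strand), holds CACGCG motifs and had no MYC peak, and MED12L, at chr3:151085414-151085713 (plus strand), had no peak at all.
CDK8: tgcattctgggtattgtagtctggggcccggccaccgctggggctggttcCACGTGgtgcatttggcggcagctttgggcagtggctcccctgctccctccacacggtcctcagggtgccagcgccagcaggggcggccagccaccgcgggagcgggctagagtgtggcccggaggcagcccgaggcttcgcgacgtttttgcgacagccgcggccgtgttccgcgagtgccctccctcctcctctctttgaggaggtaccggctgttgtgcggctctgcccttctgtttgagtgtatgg
MED13L: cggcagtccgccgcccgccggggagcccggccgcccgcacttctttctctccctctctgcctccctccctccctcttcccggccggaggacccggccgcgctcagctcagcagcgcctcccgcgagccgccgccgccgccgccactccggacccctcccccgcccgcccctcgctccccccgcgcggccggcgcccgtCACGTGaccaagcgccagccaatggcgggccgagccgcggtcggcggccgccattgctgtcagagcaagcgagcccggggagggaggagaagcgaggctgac
MED20: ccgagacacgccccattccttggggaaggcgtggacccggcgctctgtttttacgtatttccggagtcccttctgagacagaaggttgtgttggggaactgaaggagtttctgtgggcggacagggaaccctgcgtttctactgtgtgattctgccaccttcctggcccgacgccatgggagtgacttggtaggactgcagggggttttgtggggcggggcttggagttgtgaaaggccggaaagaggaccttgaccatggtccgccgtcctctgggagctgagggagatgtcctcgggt
BYSL: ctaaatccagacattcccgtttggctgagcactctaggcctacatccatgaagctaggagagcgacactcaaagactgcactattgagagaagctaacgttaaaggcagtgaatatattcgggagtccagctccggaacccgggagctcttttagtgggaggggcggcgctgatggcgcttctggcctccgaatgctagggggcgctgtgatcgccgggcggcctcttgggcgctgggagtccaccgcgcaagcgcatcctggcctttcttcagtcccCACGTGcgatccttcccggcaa
MED16: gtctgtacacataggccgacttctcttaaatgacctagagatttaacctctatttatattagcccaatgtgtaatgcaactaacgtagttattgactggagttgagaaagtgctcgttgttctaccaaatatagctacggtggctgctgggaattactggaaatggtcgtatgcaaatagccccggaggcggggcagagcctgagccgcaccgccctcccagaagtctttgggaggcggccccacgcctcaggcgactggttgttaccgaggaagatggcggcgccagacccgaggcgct
MED25: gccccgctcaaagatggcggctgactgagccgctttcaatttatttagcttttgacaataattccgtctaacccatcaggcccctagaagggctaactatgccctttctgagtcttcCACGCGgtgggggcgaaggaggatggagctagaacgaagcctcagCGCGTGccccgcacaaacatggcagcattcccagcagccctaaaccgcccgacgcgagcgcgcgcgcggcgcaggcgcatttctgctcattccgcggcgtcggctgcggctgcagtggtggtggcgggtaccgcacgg
MED12L: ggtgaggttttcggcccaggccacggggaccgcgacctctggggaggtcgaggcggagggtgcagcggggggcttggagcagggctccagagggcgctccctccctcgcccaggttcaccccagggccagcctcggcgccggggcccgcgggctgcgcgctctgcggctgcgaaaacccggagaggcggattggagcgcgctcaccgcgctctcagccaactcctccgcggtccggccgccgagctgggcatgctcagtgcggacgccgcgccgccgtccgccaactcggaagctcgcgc

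Nearly every Mediator gene had a MED17 peak. This held for 31 of the 33 genes (93.9%, exact Clopper-Pearson 95% interval 79.8 to 99.3%), against 47.9% of all protein-coding genes. A MED30 peak was found at 25 of 33 (75.8%, 57.7 to 88.9%), against 41.7% of all genes. Parental MYC had a peak at 18 of 33 (54.5%, 36.4 to 71.9%), against 39.0% of all genes. The intervals cover counting error only and treat genes as independent. The background was not matched on expression, which was not measured, and whether these shares exceed those of other active genes was not tested.

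Genes with MED30 or with MYC were all among those with MED17. All 25 genes with a MED30 peak also had a MED17 peak, as did all 18 with a MYC peak. Most genes elsewhere did the same. Over all protein-coding genes, 7805 of the 8346 with MED30 and 7209 of the 7813 with MYC also had MED17. In parental cells 15 genes carried all 3 proteins (45.5%, 28.1 to 63.6%), against 31.2% of all protein-coding genes, and at each of the 15 a MYC, a MED17 and a MED30 peak shared at least 1 base. Such overlap is common. Over all genes with both, the strongest MYC peak overlapped that of MED30 at 93.1% and that of MED17 at 90.7%. Both Mediator subunits, with or without MYC, were at 25 of 33, against 39.0% of all genes, and 10 of these 25 lacked MYC. Over all genes 6242 of the 7805 with both subunits had MYC. MED6, MED20 and MED13 had MED17 and MYC without MED30, and MED23, MED27 and MED28 had MED17 alone. MED12L and MED30 had none of the 3.

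**Figure D1:**
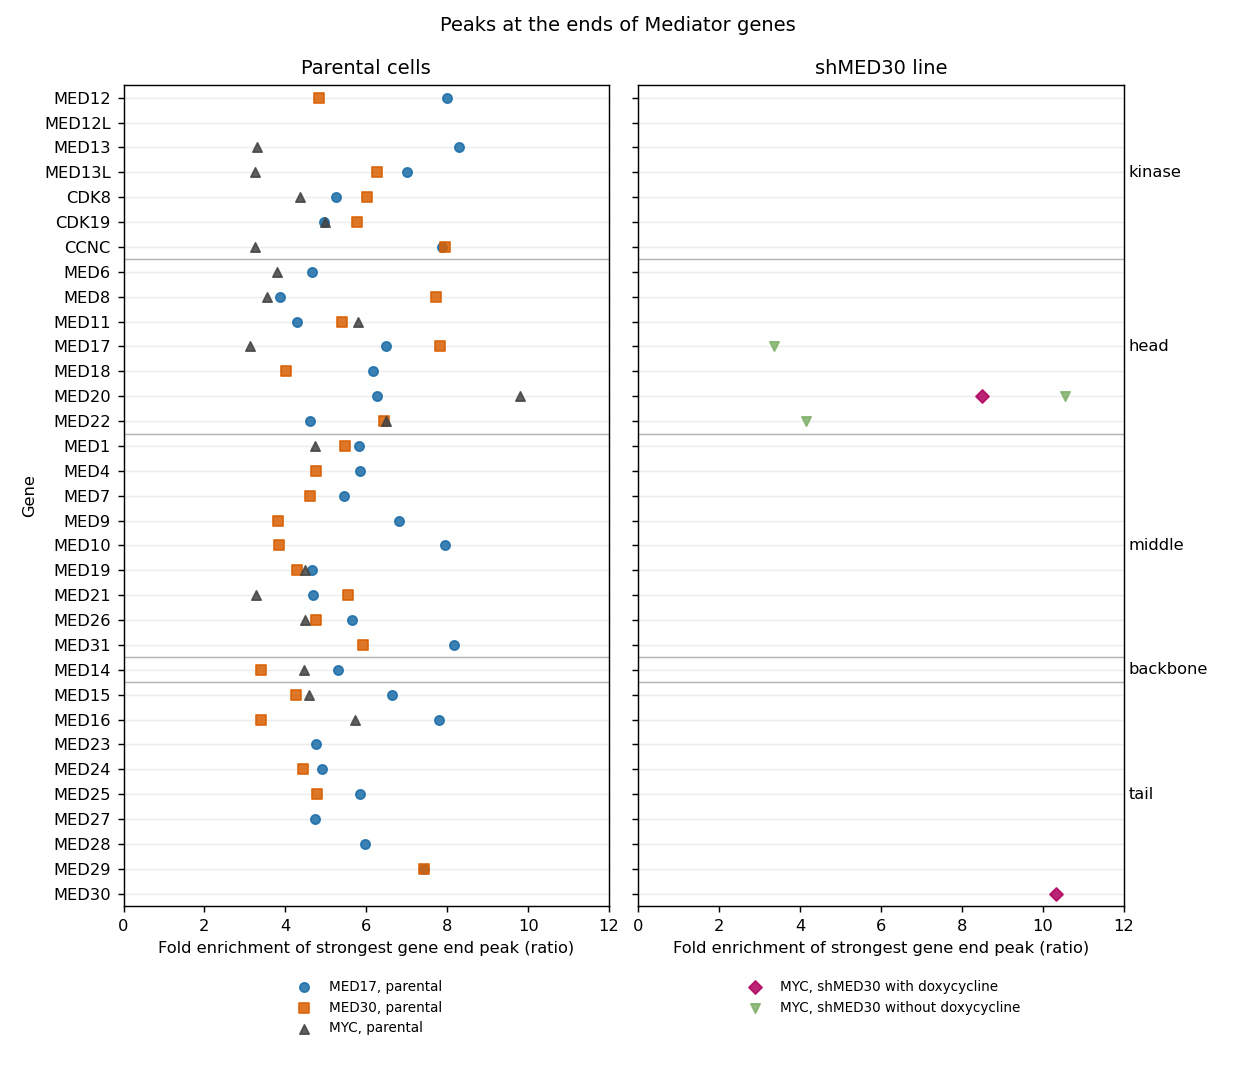
Fold enrichment (horizontal axis, ratio of pileup to local background with 1 added to each, the authors' value) of the strongest gene end peak of each Mediator gene (vertical axis, grouped by module). Parental cells are on the left and the shMED30 line on the right. Each point is 1 peak in 1 library and a missing point means no peak in that list. Parental MED17 points fill 31 of 33 rows, whereas the shMED30 line has 2 points with and 3 without doxycycline.

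In strength the member peaks spanned most of their lists, with percentiles by fold between 16.6 and 96.6 for MED17, 6.70 and 94.7 for MED30, and 5.98 and 96.6 for MYC. Folds ran from 3.87 at MED8 to 8.30 at MED13 for MED17 (median 5.84, against 5.19 over all genes with a peak), from 3.39 at MED14 to 7.94 at CCNC for MED30 (4.82, against 5.05) and from 3.13 at MED17 to 9.80 at MED20 for MYC (4.47, against 4.68). Of the members with a peak, 7 of 31 for MED17 lay in the upper 10% of their list by fold (22.6%, against 9.91% of all genes with a MED17 peak). For MED30 this was 4 of 25 (16.0%, against 9.88%), and for MYC 1 of 18 (5.56%, against 9.84%).

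Among the modules, the kinase module had the highest median rank of MED17 peaks and the lowest of MYC peaks. MED17 had a peak at 6 of 7 kinase module genes (85.7%, 42.1 to 99.6%), with a median percentile of 92.3 within the MED17 list. The medians were 39.9 for the head, 72.2 for the middle and 74.0 for the tail, which had MED17 at 7 of 7, 9 of 9 and 8 of 9 genes. For MED30 the order differed, with medians of 85.0 for the head, 78.8 for the kinase module, 47.9 for the middle and 37.6 for the tail. MYC had a peak at 5 of 7 kinase module genes, at a median percentile of 9.97 in the MYC list, against 51.9 for the 6 of 7 head genes, 50.1 for the 4 of 9 middle genes and 64.7 for the 2 of 9 tail genes. Over all protein-coding genes with a gene end peak the median percentiles were 56.4 for MED17, 57.3 for MED30 and 55.6 for MYC. Because genes are not replicates, these differences between modules were not tested. The share of kinase module genes minus that of the other modules was 21.4 percentage points for MYC, -5.49 for MED30 and -10.4 for MED17. With the upper 50% of each list alone all 3 changed sign, to -12.6, 40.7 and 9.89. The difference for MED30 also became 2.2 without peaks nearer to another gene. With listed gene starts alone it became 9.89, but members with no listed start then count as having no peak. Of these members only MED13 is in the kinase module, so that value does not compare the modules on equal terms.

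CCNC, the cyclin that activates the kinase, ranked high for both Mediator subunits and low for MYC. Its strongest peaks had folds of 7.86 for MED17 and 7.94 for MED30, at percentiles of 95 and 94.7 in their lists, and 3.26 for MYC, at a percentile of 8.47. MED13, which tethers the kinase module to the core, had the highest MED17 fold of all members, 8.30, no MED30 peak and a MYC fold of 3.31. Its MYC peak lay wholly outside the gene, with its nearest base 655 bp from the upper end. Its paralog MED13L carried all 3 proteins, with folds of 7.0 for MED17, 6.27 for MED30 and 3.25 for MYC.

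The paralogous kinases carried all 3 proteins and did not share that order of ranks, with percentiles of 58.3 for MED17 and 46.3 for MYC at CDK8, and of 49.1 for MED17 and 62.9 for MYC at CDK19. CDK8 had folds of 5.26 for MED17, 6.02 for MED30 and 4.36 for MYC. CDK19 had 4.96 for MED17, 5.78 for MED30 and 4.98 for MYC. The start of CDK19 faces the polyamine synthesis gene AMD1, and its MED17 summit lay 604 bp from a listed start of CDK19 and 248 bp from that of AMD1, whereas its MYC summit lay 20 bp from a CDK19 start and 832 bp from AMD1.

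Of MED12, which activates cyclin C-CDK8, and its paralog MED12L, only MED12 had peaks. MED12 (chromosome X, 71118596 to 71142450) had a MED17 peak of fold 7.99 (percentile 95.5) and a MED30 peak of 4.82, and the nearest MYC summit was 39.6 kb away. MED12L (chromosome 3, 151085664 to 151436653) had no peak at its ends or inside the gene. The nearest summits of MED17, MED30 and parental MYC lay 323, 322 and 322 kb from it. Its promoter, printed above, is rich in CpG, with 39 CG dinucleotides against a median of 21.0 over the listed promoters of protein-coding genes.

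**Figure D2:**
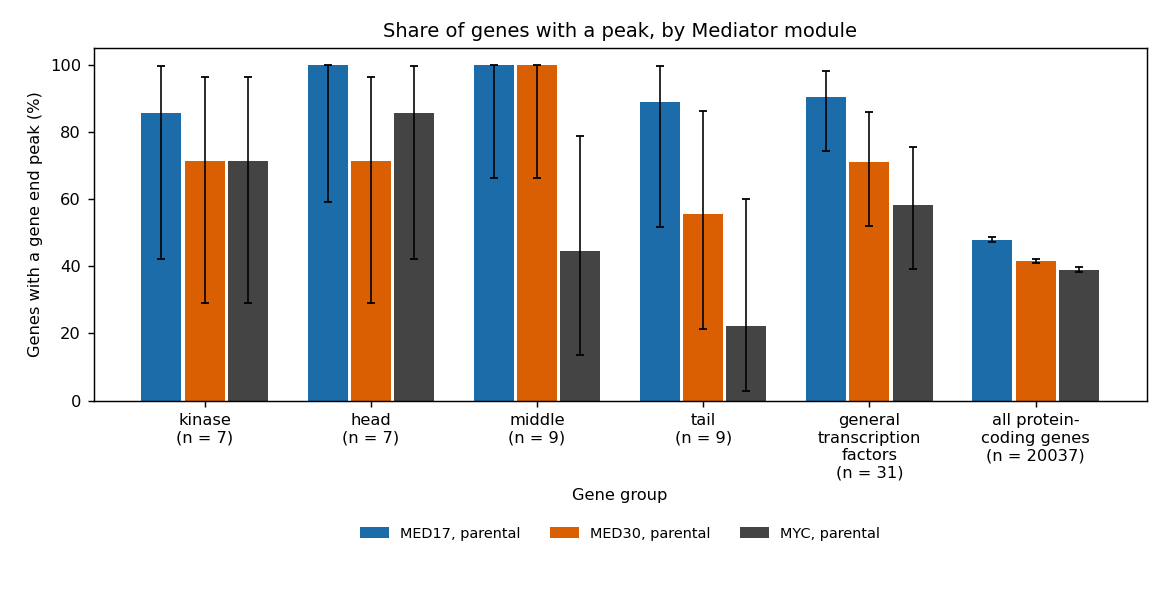
Share of genes (vertical axis, percent) with a gene end peak of MED17, MED30 or MYC in parental cells, for 4 Mediator modules, the general transcription factors and all protein-coding genes; bars are shares in 1 library each, and error bars are exact 95% intervals for counting error. In the assignment drawn, the shares for MYC are 85.7% in the head and 22.2% in the tail, with intervals that overlap; with MED27, MED28, MED29 and MED30 in the head they rest on 6 of 11 and 2 of 5 genes.

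MYC had a peak at more of the head genes than of the tail genes, 6 of 7 (85.7%, 42.1 to 99.6%) against 2 of 9 (22.2%, 2.81 to 60.0%), with intervals that overlap. With MED27, MED28, MED29 and MED30 counted in the head the numbers were 6 of 11 head genes against 2 of 5 tail genes, and without peaks nearer to another gene 4 of 7 head genes kept MYC. MED17, the gene of the head scaffold, had folds of 6.49 for MED17 and 7.82 for MED30 (percentiles 83.8 and 94.3) and a weak MYC peak of 3.13 (5.98). MED17 protein was thus enriched at its own gene. MED8, which links the MED18-MED20 pair to the rest of the head, had a MED30 fold of 7.72 (percentile 93.9) and a MED17 fold of 3.87 (16.6).

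MED11 and MED22 form a pair in the head, and both carried all 3 proteins. MED11 had folds of 4.28 for MED17, 5.39 for MED30 and 5.79 for MYC. MED22 had 4.62, 6.44 and 6.48 for the same proteins. The MED22 peaks are shared with the ribosomal protein gene RPL7A, whose listed start was closer to all 3 summits (33 bp for MED30 and 140 bp for MYC) than the end of MED22 (120 and 227 bp). MED18 had Mediator without MYC (folds of 6.17 for MED17 and 4.00 for MED30), and MED6, which sits at the interface of head and middle, had a MED17 fold of 4.65 and a MYC fold of 3.80 without MED30, at peaks that did not overlap.

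All 9 middle genes had MED17 and MED30 peaks, which no other module with several genes reached. The highest MED17 folds were at MED31 (8.16), MED10 (7.95) and MED9 (6.81), and none of these had a MYC peak. MED30 folds at the same genes were 5.93, 3.85 and 3.82. MED1, the docking subunit for nuclear receptors, carried all 3 proteins at folds of 5.83 for MED17, 5.47 for MED30 and 4.73 for MYC. MED26, through which Mediator recruits elongation factors, carried them at 5.65, 4.75 and 4.49 for the same proteins. MED21 had a MYC fold of 3.27 (percentile 8.80), MED19 had its MYC summit 609 bp from its own start and 231 bp from that of TMX2, and MED4 and MED7 had Mediator alone.

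MED14, which joins head, middle and tail, is the exception in position. Its strongest MED17 peak (5.30) lay outside the gene, nearest to the start of CXorf38, and came no closer than 876 bp to the lower end. MED30 (3.39) and MYC (4.46) were at the other end. The MED17 and MED30 summits were 88444 bp apart. A second MED17 peak lay at that other end, so all 3 proteins overlapped there.

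MED30 had a peak at 5 of 9 tail genes (55.6%, 21.2 to 86.3%). With MED27, MED28, MED29 and MED30 counted in the head, this was 4 of 5 tail genes and 6 of 11 head genes. MED16 had a MED17 fold of 7.80 (percentile 94.7), a MED30 fold of 3.41 (6.99) and a MYC fold of 5.73 (75.9). MED15, which binds the sterol regulator SREBP, had 6.62, 4.26 and 4.6 for the same proteins. MED29 ranked high in both Mediator lists (folds of 7.44 for MED17 and 7.42 for MED30, percentiles 92.8 and 92.4), and its summits lay closer to the start of PAF1, an elongation factor gene, at 137 and 71 bp, than to its own, at 409 and 201 bp. MED23, which takes up signals from the factor ELK1, MED27 and MED28 had MED17 folds of 4.76, 4.73 and 5.98 and no other peak, and MED24 and MED25 had both subunits without MYC.

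**Figure D3:**
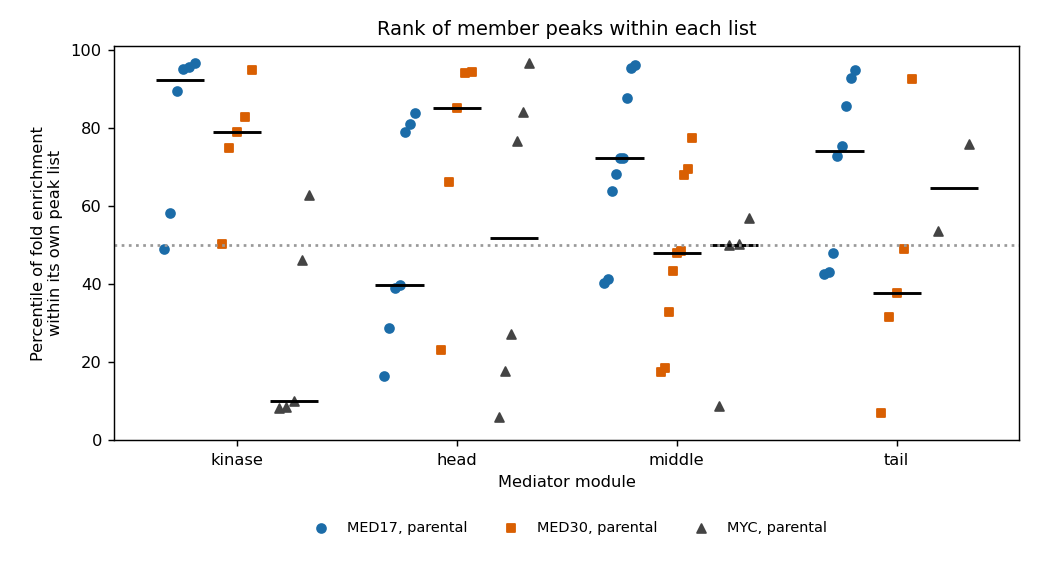
Percentile of each member's strongest gene end peak by fold within its own list (vertical axis, 0 to 100), by Mediator module (horizontal axis) and protein in parental cells; each point is 1 gene, black bars are medians and the dotted line is the 50th percentile. The kinase module's medians are 92.3 for MED17, 78.8 for MED30 and 9.97 for MYC, against 56.4, 57.3 and 55.6 over all protein-coding genes with a gene end peak.

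Where a start was listed, member peaks lay at gene starts, as most peaks did over all genes. For the 25 members with a listed start and strand, the strongest gene end peak of MED17 (24 genes), MED30 (21) and MYC (12) always lay at the start and never at the far end of the gene. Over all genes with a listed start, the summit was within 2 kb of it at 7434 genes for MED17, 6506 for MED30 and 6080 for MYC. It was farther away at 531, 467 and 421. Inside the genes, over 1 kb from both ends, the MED17 and MED30 lists held no peak and the MYC list 1, in MED15 at 23.7 kb from the start with a fold of 3.20. No such count over all genes is given here. The rule's limit of 1 kb left out MYC peaks 1812 bp from MED29 (fold 4.26) and 2013 bp from MED31 (4.49), and took in the MED17 peak 876 bp from MED14 (5.30).

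Within the promoters the summits of the 2 Mediator subunits lay at different distances from the start, although their peaks mostly overlapped. The strongest MED17 and MED30 peaks overlapped at 24 of the 25 members with both (96.0%, against 94.5% over all genes with both). Their summits were a median of 208 bp apart, against 255 bp. MED30 summits lay a median of 125 bp from the gene start, and 10 of 21 were within 100 bp. MED17 summits lay a median of 349.5 bp away, and 0 of 24 were within 100 bp. Where a gene had both, the MED30 summit was the closer one at 18 of 21, the exceptions being MED4, MED19 and MED25. The same order held over all protein-coding genes, with medians of 118 bp for MED30 and 255 bp for MED17, shares within 100 bp of 45.3% and 10.6%, and MED30 the closer at 72.9% of 6527 genes.

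Most MED17 summits lay downstream of the start, 17 of 24 (70.8%, against 70.6% over all genes). CDK8 is an example, with the MED17 summit 364 bp downstream and the MED30 summit 16 bp downstream. At MED18 they were 401 bp and 6 bp downstream, and at MED26 309 bp downstream and 4 bp upstream. MED1, MED7, MED11, MED13L, MED20, MED25 and MED29 had the MED17 summit upstream, between 374 bp at MED1 and 681 bp at MED20. MYC summits lay a median of 197.5 bp from the start, 5 of 12 within 100 bp. MED30 and MYC summits were a median of 208 bp apart at 15 members, against 176 bp over all genes with both, and MED17 and MYC summits 307 bp at 18 members, against 267 bp.

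**Figure D4:**
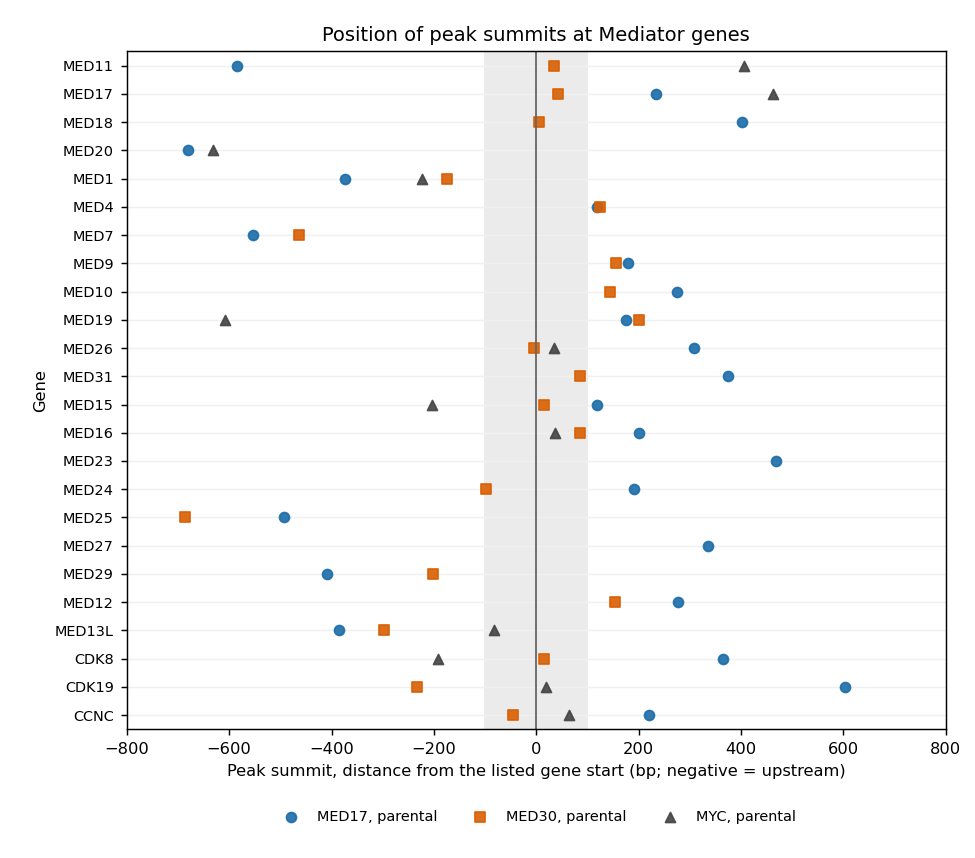
Distance of peak summits from the listed gene start (horizontal axis, bp, negative upstream) for the 24 Mediator genes with a listed start and a peak, in parental cells; each point is the strongest peak of 1 protein at 1 gene and the shaded band spans 100 bp on each side of the start. Of the MED30 points 10 of 21 lie in the band, and no MED17 point lies in it.

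Few of the members' promoter windows held the searched motifs. CACGTG, searched on both strands, was found in the window of 2 of 25 genes, CDK8 and MED13L (8.0%), against 10.9% of 15843 protein-coding genes with a listed start. CACGCG was found in 2 of 25, MED4 and MED25 (8.0%), against 18.1%, and neither of these had a MYC peak. The motif of CDK8 starts 200 bp upstream of the gene start, 8 bp from the MYC summit at 192 bp upstream. That of MED13L starts 52 bp upstream, 30 bp from the MYC summit at 82 bp upstream. The windows end 50 bp past the start, and the MYC summits of MED11, MED17, MED19 and MED20 lie outside their windows.

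MED20 had the highest parental MYC fold of the members. The parental peak, at chr6:41921174-41922020, had a fold of 9.80 and a summit pileup of 74 fragments (percentile 96.6). Its MED17 fold was 6.28, and the nearest MED30 summit was 9.86 kb from the gene. The MYC summit lay 631 bp upstream of the listed start of MED20 and 75 bp downstream of that of BYSL, the gene of bystin, a factor of small ribosomal subunit assembly, which is transcribed in the opposite direction. The CACGTG in the BYSL window starts 28 bp downstream of that start, 47 bp from the summit. BYSL was singled out after these values were seen. Over the set, MYC summits lay closer to the listed start of another gene at 3 of 18 members (MED19, MED20 and MED22), MED17 summits at 5 of 31 and MED30 summits at 2 of 25.

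In the shMED30 line few Mediator genes had a MYC peak. There were 2 of 33 with doxycycline (6.06%, 0.743 to 20.2%, against 4.71% of all genes), MED20 and MED30, and 3 of 33 without it (9.09%, 1.92 to 24.3%, against 8.55%), MED17, MED20 and MED22. Both shares are near those of all genes. All 3 genes bound without doxycycline are head genes, but so few peaks show no difference between modules. With that list cut to the length of the list with doxycycline, 1 of the 3 kept a peak. The kinase module (7 genes) and the middle (9 genes) had 0 genes in either list, which on 9 genes leaves an upper limit of 33.6% in the exact interval.

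MED20 was bound by MYC in all 3 MYC lists. Its folds were 8.48 with doxycycline, 10.6 without it and 9.80 in parental cells (percentiles 94.2, 96.2 and 96.6), on summit pileups of 11, 17 and 74 fragments. Fold has 1 added to pileup and to background, which lowers it more in the shallow libraries. The 3 folds are therefore not comparable between lists. The summits of the hairpin line lay 79 bp with doxycycline and 34 bp without it from the BYSL start. MED22 had a fold of 4.14 and MED17 one of 3.35 without doxycycline, on pileups of 7 and 4 fragments, and neither had a peak with it. Of the 3 genes, 1 thus had its peak overlapped by a peak with doxycycline, against 33.5% of all genes with a peak without it. In a library 0.599 times as deep, the loss of a peak of 4 to 7 fragments cannot be told apart from lower depth.

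Parental peak strength marked which genes were still called in the shallow libraries. Among all genes with a parental MYC peak in the upper 10% of that list, 51.8% had a peak with doxycycline and 73.7% without it; in the lower 50% the shares were 2.39% and 5.51%. Of the members, 10 were in the lower 50%, of which 0 had a peak with doxycycline and 1 without it (MED17), 7 lay between, with 0 and 1 (MED22), and MED20 was the only one in the upper 10%.

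The MED30 gene stood apart. At chr8:117520713-117540262 it had no peak of MED17, MED30 or parental MYC and none of MYC without doxycycline, while the list with doxycycline held a peak of fold 10.3 at 117520865 to 117521060, 196 bp wide with a summit pileup of 13 fragments (percentile 97.3). Its summit lies 244 bp inside the lower end of the gene. The nearest peaks of the other lists were 572 kb away for MED17, 754 kb for MED30 and for parental MYC, and 880 kb for MYC without doxycycline. No transcript or protein level of MED30 was analysed, which leaves the knockdown unchecked here, and the peak rests on 1 library. Its origin cannot be settled from a peak list, and without it 1 member, MED20, had a MYC peak with doxycycline.

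Genes of the general transcription factors, with which Mediator assembles at promoters, gave similar shares. Of 31 genes, 28 had a MED17 peak (90.3%, 74.2 to 98.0%), 22 a MED30 peak (71.0%, 52.0 to 85.8%) and 18 a MYC peak (58.1%, 39.1 to 75.5%), and 14 carried all 3 (45.2%). Over all protein-coding genes the shares were 47.9% for MED17, 41.7% for MED30, 39.0% for MYC and 31.2% for all 3. The highest folds for both subunits were at TAF12, a TFIID subunit (11.3 for MED17 and 15.2 for MED30), which had no MYC peak. TAF9, another TFIID subunit, had the highest MYC fold, 6.73, at a peak shared with AK6 and RAD17. GTF2H2 and GTF2H4, subunits of TFIIH, had no peak of any of the 3. In the shMED30 line 0 of 31 had a peak with doxycycline (interval 0.0 to 11.2%, against 4.71% of all genes). Without it there were 3 (9.68%, 2.04 to 25.8%, against 8.55%), at TBP (5.18), GTF2A1 (4.81) and GTF2H3 (4.44). Both intervals hold the share of all genes, and in a 5 kb window the counts were 3 and 6.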

How the data were processed

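Peak lists of 5 ChIP-seq libraries were used, 1 per group, mapped to hg38. Trim Galore, Bowtie2, deepTools and MACS2 are named in the submitters' processing notes, with no version or input control given in the sources used here. The deposited values of each peak are fold enrichment, −log10 p and −log10 q, and a score, which is 10 times −log10 q. Fold was read as the ratio of summit pileup to local background with 1 added to each. At low pileup it therefore falls well below the plain ratio. The deposited lists end at a q of 0.05 for the 3 parental libraries and 0.1 for the shMED30 line. These values served only to describe or rank peaks within a list.

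Genes, listed starts and promoter sequences came from RefSeq (GRCh38.p14); all 33 members matched the gene table and 25 the promoter table. The strongest peak within 1 kb of a gene end stands for each gene. Pileup was recovered from fold and p within 0.002 log10 units for 99.4% to 99.8% of peaks. The members, modules and lists were chosen with earlier results of these data known. Named are all members, genes sharing their peaks (1 of which is not reported here), and the extremes of the general transcription factor list. Peak assignment and pileup recovery were tested on simulated data. Python 3.11.15, pandas and scipy were used. With 1 library per group no test was run.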

Additional observations from a re-analysis of the deposited data

How the results depend on the processing

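Counts of members with a peak moved by at most 2 genes in windows of 500 bp and 5 kb, at a q of 0.01 and with summits in place of whole peaks. In the 500 bp and 5 kb windows the kinase module's share for MYC minus that of the other modules fell to 7.14 and 13.7 percentage points. When each list was limited to its upper 50% by fold, 13 members had MED30, 8 MYC, 1 MYC without doxycycline and 1 all 3 proteins in parental cells. Under the same restriction the kinase module's share minus that of the other modules, -5.49 percentage points for MED30 and 21.4 for MYC, became 40.7 and -12.6, and that for MED17, -10.4, became 9.89; the restriction itself removes the weak peaks. With all 3 summits within 250 bp, 3 members (MED1, MED15 and MED16) carried all 3 proteins. With listed gene starts alone, 1 member had MYC with doxycycline, since MED30 has no listed start. With the list without doxycycline cut to the length of the other, 1 member had a peak in it. Without peaks nearer to the listed start of another gene, an alternative added after the data were seen, 1 member had MYC with doxycycline and 0 kept it, since the MED20 peak is removed. No paired analysis was possible because each group holds 1 library. The shMED30 libraries were shallower than the parental MYC library, and their lists reach a q of 0.1.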
